A study of Homo sapiens with 8 samples.

Results

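The genes described here are lncRNA genes of the GENCODE annotation whose only name is an Ensembl identifier. They are long noncoding RNA loci that have been annotated but have not been given a gene symbol. Release 44 of GENCODE on hg38 holds 13109 such genes among its 18866 lncRNA genes. Of these, 10758 could be matched to a gene of the short-read table, either by identifier or by a span on the same strand with a Jaccard index (shared bases over joint bases) of at least 0.5. Of the matched genes, 6054 were at 0 in all 6 short-read libraries. The members are the 1885 genes whose normalized count (reads divided by a size factor of the library) was 10 or more in 3 or more libraries, out of 26066 genes tested in all. Of the members, 405 were matched by identifier and 1480 by span, and 1694 had a Jaccard index of at least 0.9. The value in the third highest library sets membership. It was 10.1 for the 3 members just inside and 9.88 for the 3 genes just outside.

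HAP1 cells, an untreated near-haploid human line derived from the KBM-7 leukemia line, were the source of all 8 libraries. Nuclei were split into a chromatin pellet and soluble nucleoplasm, and the same volume of ERCC standards (synthetic RNAs) was added to every fraction. The short-read libraries of these fractions came from 3 independent cultures. Ribosomal RNA was depleted, and 3 chromatin and 3 nucleoplasm libraries were sequenced as directional single-end short reads. A further 2 chromatin libraries were sequenced as long reads on a nanopore instrument after enzymatic polyadenylation. One label field names chromatin for every library, so fractions were taken from the titles.

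A lncRNA is transcribed like a messenger RNA, usually by RNA polymerase II, but carries no long conserved reading frame. Many stay in the nucleus, and chromatin-bound transcripts include both short-lived nascent RNA and stable RNAs such as MALAT1. Many lncRNA genes start next to a protein-coding promoter and run away from it, and others lie inside or antisense to protein-coding genes.

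Recovered depth was 38895027 to 43804918 reads in chromatin and 75737601 to 79523938 in nucleoplasm. MALAT1 and PVT1 were higher in chromatin (log2 fold changes 3.09 and 3.11), and GAPDH and B2M were lower (-2.35 and -2.11). BCR and ABL1, the fusion partners of the parental leukemia, were detected in every library. Among genes of the blood lineages, PTPRC, SPI1 and GATA1 were at 0 in all 6 libraries and CD34 in 3, and CD33 stood at 2.33 to 4.39 normalized counts. LMO2 averaged 12.3 in chromatin and 34.7 in nucleoplasm, and RUNX1 averaged 1309.6 and 404.7. Of the epithelial markers, EPCAM averaged 59.8 in chromatin and 323 in nucleoplasm, while CDH1 stood at 2.58 to 6.76 normalized counts. Of the mesenchymal markers, VIM and COL1A1 were detected in every library, while COL1A2 was at 0 in all 6. The member genes held 1.68 to 1.87% of gene counts in chromatin and 0.990 to 1.03% in nucleoplasm. The most abundant member alone, which overlaps the RNase P RNA gene RPPH1, held 9.67 to 11.9% of the member counts in chromatin and 31.9 to 35.3% in nucleoplasm.

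Member promoters were lower in CpG content than those of the other gene classes, so those of 4 members among the largest differences between fractions are shown. Each run covers 250 bases before to 50 bases after the annotated start on hg38, written 5′ to 3′ on the gene's strand, with CG dinucleotides in capitals. The first 2 belong to members called in chromatin and the last 2 to members called in nucleoplasm.
ENSG00000283982 (chr9:23672338-23672637, minus strand): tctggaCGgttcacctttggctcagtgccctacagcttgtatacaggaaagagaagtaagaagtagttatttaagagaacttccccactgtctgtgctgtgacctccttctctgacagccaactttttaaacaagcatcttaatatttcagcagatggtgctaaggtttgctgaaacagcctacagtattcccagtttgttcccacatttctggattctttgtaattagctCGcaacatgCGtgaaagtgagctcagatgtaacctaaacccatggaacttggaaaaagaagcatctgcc
ENSG00000287355 (chr9:27498202-27498501, minus strand): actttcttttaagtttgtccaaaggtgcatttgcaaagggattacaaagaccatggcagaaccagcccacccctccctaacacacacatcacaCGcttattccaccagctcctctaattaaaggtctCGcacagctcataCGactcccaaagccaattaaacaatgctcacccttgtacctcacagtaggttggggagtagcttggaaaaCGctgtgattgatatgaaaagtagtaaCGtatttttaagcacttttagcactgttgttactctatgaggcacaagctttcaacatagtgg
ENSG00000272368 (chr12:50111947-50112246, plus strand): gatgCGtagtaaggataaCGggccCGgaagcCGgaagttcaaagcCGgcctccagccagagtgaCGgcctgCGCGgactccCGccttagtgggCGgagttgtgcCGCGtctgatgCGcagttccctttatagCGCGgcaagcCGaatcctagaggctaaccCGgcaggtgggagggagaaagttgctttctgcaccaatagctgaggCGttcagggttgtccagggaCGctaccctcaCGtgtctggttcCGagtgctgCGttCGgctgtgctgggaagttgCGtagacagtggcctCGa
ENSG00000276529 (chr21:44978582-44978881, plus strand): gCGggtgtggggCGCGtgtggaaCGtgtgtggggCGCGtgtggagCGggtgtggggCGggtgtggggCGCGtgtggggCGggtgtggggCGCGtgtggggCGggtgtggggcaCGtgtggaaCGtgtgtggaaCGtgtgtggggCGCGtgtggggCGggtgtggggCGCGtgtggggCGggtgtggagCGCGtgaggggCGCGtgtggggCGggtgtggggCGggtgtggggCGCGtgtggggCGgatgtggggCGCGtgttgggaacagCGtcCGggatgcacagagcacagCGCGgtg

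The 2 chromatin members had 3 and 5 CG dinucleotides in 300 bases, with observed over expected CpG of 0.22 and 0.37. Among the nucleoplasm members, ENSG00000272368 had 25 and ENSG00000276529 had 38, the latter within near copies of a short GC-rich unit. ENSG00000272368 starts 115 bases from the nearest protein-coding start and overlaps an exon of COX14. The CpG content of its window can therefore not be assigned to the lncRNA alone. Over all members, 34.1% of promoters were CpG-rich (GC above 50% and observed over expected CpG above 0.6), against 61.6% of 1548 lncRNA genes with a symbol and 70.0% of 12462 protein-coding genes. The median promoter GC content was 51.7% for members, 63.0% for lncRNA genes with a symbol and 63.3% for protein-coding genes. TATAAA on either strand occurred in 14.7% of member promoters, 8.20% of those of lncRNA genes with a symbol and 7.11% of protein-coding promoters. Among the 4 promoters shown it occurred in that of ENSG00000272368.

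The question of the study's design was which transcripts stay with chromatin. Of the 1885 members, 858 (45.5%, 95% Wilson interval 43.3 to 47.8) were called in chromatin, at an adjusted p-value under 0.05 in limma and a change of more than 4-fold, and 12 in nucleoplasm. Over all tested genes the shares were 21.2% in chromatin and 8.47% in nucleoplasm. All tested genes include the members, and also many genes assigned to neither lncRNA nor protein-coding genes. The median log2 fold change (chromatin over nucleoplasm, on log2 of the normalized count + 1) was 1.82 for members, 1.20 for 1549 lncRNA genes with a symbol, -0.39 for 12493 protein-coding genes and -0.02 for all tested genes. At the adjusted p-value alone, 1512 members were higher in chromatin and 149 in nucleoplasm, against 44.2% and 45.2% of all tested genes. In 1522 members all 3 chromatin libraries lay above all 3 nucleoplasm libraries, in 153 below, and in 210 the fractions overlapped. Among all tested genes the percentages above and below were 44.6% and 46.0%.

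These counts are shaped by the filter, since 696 members reached 10 normalized counts in all 3 chromatin libraries and in 0 nucleoplasm libraries, and 8 the reverse. The median member had 41.7 to 45.6 normalized counts in the chromatin libraries and 12.1 to 12.7 in the nucleoplasm libraries. Among the 888 members with at least 10 in all 6 libraries, 205 (23.1%) were called in chromatin against 11.4% of all genes passing the same filter, and 10 in nucleoplasm against 8.7%. Their median log2 fold change was 1.07 against -0.28. LncRNA genes with a symbol stood at 19.3% under that filter and protein-coding genes at 2.58%. With each library set to the same ERCC total, the median of all genes moved from -0.02 to -1.33 and that of members from 1.82 to 0.57. Under that scaling 383 members were called in chromatin (20.3%, against 12.0% of all genes) and 107 in nucleoplasm (against 34.5% of all genes). The 888 members then had a median of -0.23, against -1.60 for all genes with that filter. The medians were -0.42 for lncRNA genes with a symbol and -1.74 for protein-coding genes. Of the 888, 44 (4.95%) were called in chromatin against 5.24% of all genes with that filter. The shares were 3.23% for lncRNA genes with a symbol and 0.25% for protein-coding genes.

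**Figure D1:**
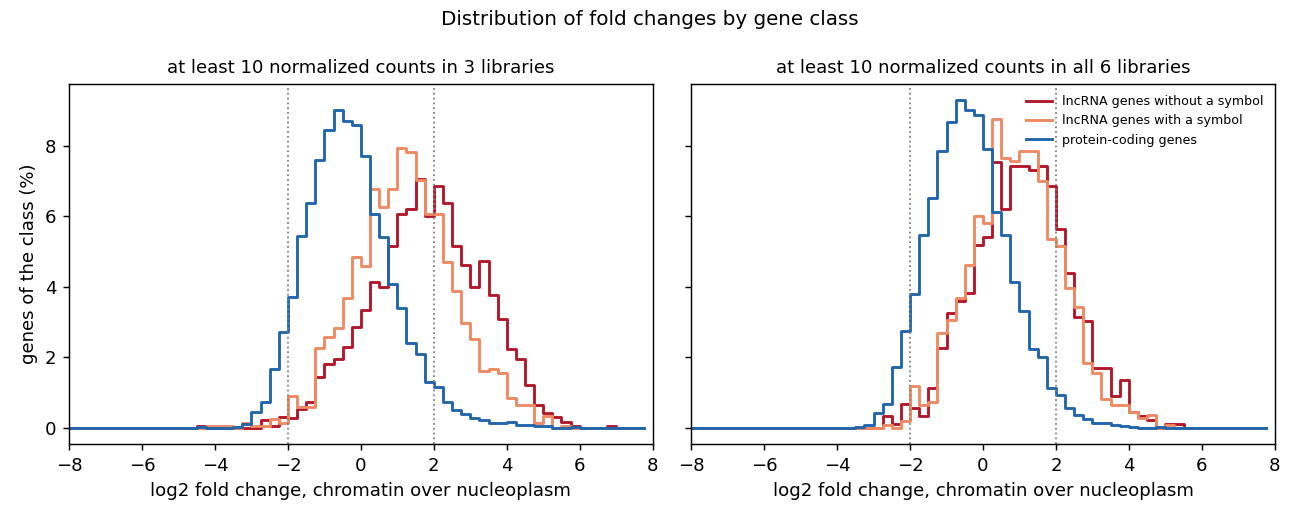
Percent of genes per bin of log2 fold change (chromatin over nucleoplasm) for members, lncRNA genes with a symbol and protein-coding genes, under the filter used here (left) and with at least 10 normalized counts in all 6 libraries (right); dotted lines mark a 4-fold change. The member curve centres on 1.82 at left and on 1.07 at right, where it lies close to that of lncRNA genes with a symbol.

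The member with the largest fold change, among those averaging 50 or more normalized counts, was ENSG00000283982 (chr9:23500691-23672387), a gene with 28 exons on the minus strand of chromosome 9, 17717 bases from ELAVL2, which encodes a neuronal RNA-binding protein. Its normalized counts were 109, 137 and 125 in chromatin, and no read was seen in any nucleoplasm library. Against a floor of 3 reads per library this is at least 47.9-fold higher in chromatin. Its exons overlap an exon of another lncRNA gene, ENSG00000233906, and reads in that overlap cannot be told apart. ELAVL2 itself had a log2 fold change of -0.03.

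ENSG00000287355 (chr9:27495857-27498251) has 2 exons and lies inside MOB3B on the same strand. Its normalized counts were 100.2, 132 and 109.8 in chromatin and 0, 2.58 and 1.69 in nucleoplasm (log2 fold change 5.75, SE 0.44, adjusted p = 2.61e-06). The fractions did not overlap, while MOB3B, a kinase activator of the MOB family, had a log2 fold change of -0.75. ENSG00000271204 has a single exon and lies 177890 bases from MKLN1. It had 353, 575 and 327 normalized counts in chromatin and 11.4, 6.03 and 5.91 in nucleoplasm (log2 fold change 5.59, SE 0.29, adjusted p = 1.92e-07). Chromatin replicate 2 was the highest of its libraries, and the lowest chromatin value was far above the highest nucleoplasm value.

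ENSG00000249476, with 4 exons 8344 bases from PJA2 (a ubiquitin ligase gene), had 104, 115 and 105 normalized counts in chromatin and 1.76, 0 and 5.07 in nucleoplasm (log2 fold change 5.41, SE 0.56, adjusted p = 1.94e-05). ENSG00000274093 lies within NFAT5, which encodes an osmotic-stress transcription factor, on the same strand and had 156, 203 and 128 against 3.51, 3.44 and 1.69 (log2 fold change 5.41, SE 0.27, adjusted p = 1.52e-07). ENSG00000258525, antisense to COCH, had 86.2, 139 and 153 against 0, 6.03 and 2.53 (log2 fold change 5.40, SE 0.63, adjusted p = 4.30e-05). In all 3 members the fractions were apart, with nucleoplasm values of at most 6.03.

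ENSG00000268170, antisense to the taste receptor gene TAS2R40, had 217, 263 and 177 normalized counts in chromatin and 4.39, 4.3 and 4.22 in nucleoplasm (log2 fold change 5.35, SE 0.18, adjusted p = 2.19e-08). Its fractions lay far apart. ENSG00000268030, antisense to KXD1, had 54.7, 91.3 and 155 against 0, 12.1 and 0 (log2 fold change 5.30, SE 0.94, adjusted p = 6.46e-04). Its chromatin values spread almost 3-fold, and its only nucleoplasm reads were in replicate 2. For members with a nucleoplasm library at 0, the fitted fold change depends on the pseudocount.

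Of the 12 members called in nucleoplasm, 5 have an exon that overlaps an exon of a protein-coding gene on the same strand and 2 an exon of a pseudogene, and reads of those genes cannot be told apart from their own. ENSG00000272368 (chr12:50112197-50165618) overlaps an exon of COX14, a cytochrome c oxidase assembly gene. It had 183, 138 and 171 normalized counts in chromatin and 1045, 1092 and 1089 in nucleoplasm (log2 fold change -2.71, SE 0.10, adjusted p = 3.63e-08). ENSG00000284722, over OR2AT4 (an olfactory receptor gene), had 86.2, 80.5 and 109 against 509, 561 and 565 (log2 fold change -2.57, SE 0.12, adjusted p = 1.02e-07). ENSG00000290735, over the histone gene H3-7, had 1343, 1093 and 1358 against 5349, 6234 and 6420.0 (log2 fold change -2.25, SE 0.10, adjusted p = 8.14e-08).

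ENSG00000291185 overlaps the pseudogenes CLCN3P1 and LDHAP4 and had 440.2, 348 and 465 normalized counts in chromatin against 2375, 2238 and 2437 in nucleoplasm (log2 fold change -2.50, SE 0.10, adjusted p = 5.67e-08). ENSG00000251126, which overlaps a pseudogene within ANK2 on the opposite strand, had 57.1, 51.6 and 57.1 against 254, 254 and 259 (log2 fold change -2.19, SE 0.091, adjusted p = 5.62e-08). The nucleoplasm libraries lay above the chromatin libraries in each. Of these 6 named members, ENSG00000276529 (chr21:44978832-44979274) was the one that shares no exon with another gene. It is a single exon 1859 bases downstream of SLX9, a ribosome biogenesis gene. It had 25.6, 21.6 and 24.2 against 150.1, 152 and 149 (log2 fold change -2.61, SE 0.12, adjusted p = 9.60e-08). SLX9 had a log2 fold change of -2.40, and the ratio of the member to SLX9 differed by -0.22, SE 0.14, adjusted p = 0.18 between fractions, which did not pass the test.

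**Figure D2:**
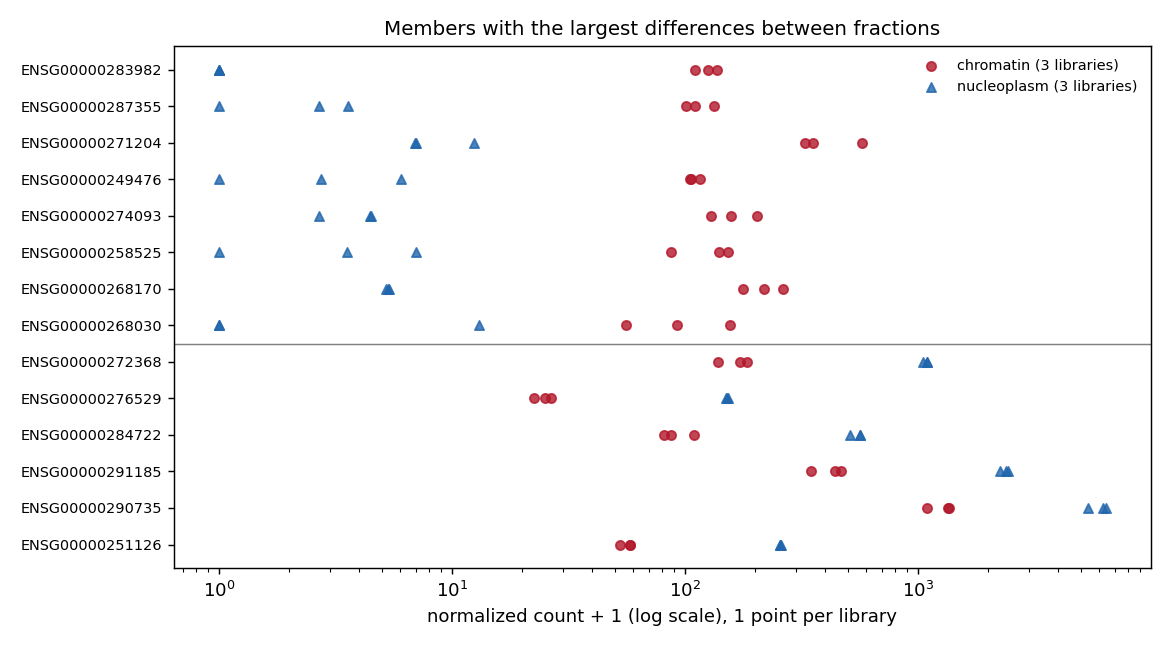
Normalized count + 1 (log axis) in each of the 6 short-read libraries for the 8 members called in chromatin (above the line) and the 6 called in nucleoplasm (below it) with the largest fold changes among members averaging 50 or more normalized counts. Circles are chromatin and triangles nucleoplasm libraries; the fractions do not overlap in any of the 14 members, and several chromatin members are at 0 in nucleoplasm libraries.

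By exon number, 765 members had 1 exon, 507 had 2 exons and 613 had 3 or more. The shares called in chromatin were 47.7%, 52.1% and 37.4%, with median log2 fold changes of 1.91, 2.05 and 1.56. Among members with at least 10 normalized counts in all 6 libraries the shares were 23.9%, 23.1% and 22.3%. The share of all multi-exon members minus that of single-exon members was -3.69 percentage points (95% interval -8.26 to 0.88), and its sign turned to 2.74 with equal ERCC totals and to 3.21 without the 274 members that overlap an exon of another gene. Without those members, the share for 3 or more exons was 47.7% and the share for 1 exon 48.1%. Crossed with position, the highest share was in 2-exon members overlapping a protein-coding gene on the same strand, with 127 of 165 (77.0%) and a median of 3.27. Single-exon members in that position had 148 of 213 (69.5%, median 2.57), and those with 3 or more exons had 32 of 114 (28.1%, median 0.48). On the opposite strand, the shares for 1, 2 and 3 or more exons were 34.1%, 36.7% and 41.5%. The order of the exon classes thus changed with position and with the settings named above.

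By position, the shares called ranged widely. The highest was in the 399 members that overlapped a protein-coding gene on its strand and were not classed as sharing a coding exon. Of these, 297 (74.4%) were called in chromatin, with a median log2 fold change of 2.93. Any overlap of the gene spans counted, and 393 of the 399 overlapped no exon of another gene. Sharing a coding exon here means any overlap with an exon of a protein-coding gene, whether or not that exon is translated. The lowest was in the 93 members that overlapped a coding gene's exon on the same strand, of which 10 (10.8%) were called in chromatin and 5 in nucleoplasm, with a median of 0.03. With at least 10 normalized counts in all 6 libraries, these shares were 40.8% of 98 and 8.14% of 86. Unspliced host transcript on the same strand cannot be told apart from the first class in short reads, and mature host transcript cannot be told apart from the second.

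Members that overlapped a protein-coding gene only on the opposite strand numbered 564, of which 37.4% were called in chromatin (median 1.65). Those 1 to 1000 bases away numbered 203 with 28.6% called, those over 1000 and up to 10000 bases away 247 with 46.2%, those beyond that and up to 100000 bases away 273 with 42.5%, and those over 100000 bases away 106 with 49.1%. Under the filter on all 6 libraries, the shares in the same order were 17.9% on the opposite strand, then 22.0%, 20.0%, 26.8% and 36.7%, so the gap between the classes nearest to a protein-coding gene seen with all members was not seen there. The share of members over 10000 bases away minus that of all members overlapping a protein-coding gene was -4.73 percentage points (95% interval -10.5 to 1.14). The 178 members that lay downstream of a protein-coding gene on its strand within 10000 bases had 50.6% called (median 2.05), against 45.0% of the other 1707, and under the filter on all 6 libraries the shares were 23.7% and 23.0%. The difference between distant and overlapping members turned to 8.56 among members with at least 10 in all 6 libraries and to 6.92 without the same-strand overlaps.

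**Figure D3:**
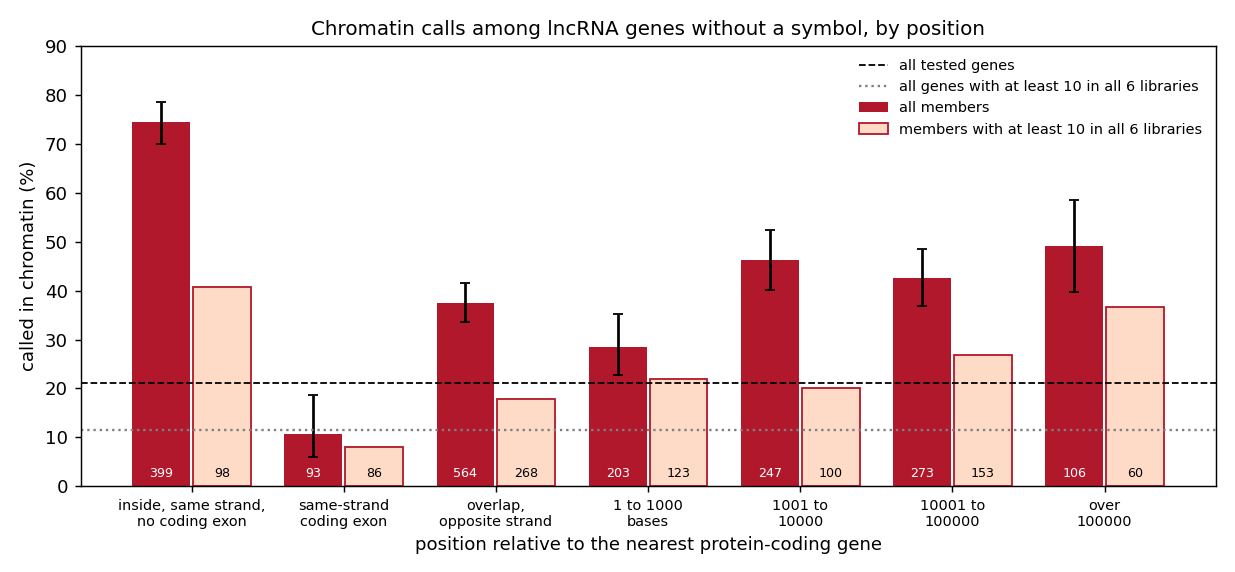
Percent of members called in chromatin by position relative to the nearest protein-coding gene, for all members (dark bars, with 95% Wilson intervals that cover counting error only) and for those with at least 10 normalized counts in all 6 libraries (light bars); numbers in the bars are members. The bars run from 74.4% for members overlapping a gene on its strand and not classed as sharing a coding exon to 10.8% for members that share one. All tested genes stood at 21.2%. The bar labelled inside counts any overlap of the gene spans.

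Members were also split by the distance between their annotated start and the nearest protein-coding start. Of the 408 members that started within 1000 bases of a protein-coding start, 97 (23.8%, against 21.2% of all tested genes) were called in chromatin, with a median log2 fold change of 1.17. Of the 401 with starts over 1000 and up to 10000 bases apart, 49.9% were called (median 1.99), and of the 1076 with starts over 10000 bases apart, 52.1% (median 2.08). With each library left out in turn, the first median stayed between 1.15 and 1.21 and the last between 2.01 and 2.11. Among members with at least 10 normalized counts in all 6 libraries the shares were 15.7%, 26.7% and 25.7% (against 11.4% of all such genes), and the medians 0.85, 1.13 and 1.18. With equal ERCC totals the shares were 6.13%, 18.7% and 26.3%, against 12.0% of all tested genes.

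Divergent members, which start on the opposite strand within 1000 bases of a protein-coding start, numbered 360. The definition sets no side, so it also takes in members that overlap the coding gene, such as ENSG00000268170. Of the 360 divergent members, 85 (23.6%) were called in chromatin against 50.7% of the 1525 others and 21.2% of all tested genes, and the medians were 1.26 and 2.02. With equal ERCC totals the shares were 5.83% and 23.7%, against 12.0% of all tested genes, and the divergent median was -0.010. CpG-rich promoters went with the divergent position, at 83.1% of divergent and 22.5% of other members. Outside protein-coding genes and without an exon of another gene, the 454 CpG-poor members that were not divergent had 52.0% called (median 2.05). The 95 CpG-rich members that were not divergent had 35.8% (median 1.54), and the 139 that were both CpG-rich and divergent had 23.7% (median 1.45). With at least 10 normalized counts in all 6 libraries, these shares were 28.7%, 27.5% and 19.5%, so the gap between the first 2 classes was 52.0% against 35.8% under one filter and 28.7% against 27.5% under the other. CpG-rich members were also more abundant, with a median mean count of 42.0 against 24.8 for CpG-poor members, and the part of abundance in these shares was not tested. In 4 equal groups by mean count, the share called was 55.5% in the lowest, 46.9% and 44.8% in the next, and 34.8% in the highest. Only 3 of the 472 members of the lowest group reached 10 normalized counts in all 6 libraries. Under that filter the shares called were 0 of 3, 0 of 121, 19.2% of 312 and 32.1% of 452. A chromatin call there needs a change of more than 4-fold from at least 10 counts. Members of the 2 lowest groups could hardly reach that level, so their low shares were largely fixed by the filter.

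ENSG00000286721, the member with the largest fold change among those 1 to 1000 bases from a protein-coding gene, lies 937 bases from SSBP2 on the same strand. SSBP2 encodes a single-stranded DNA-binding protein. The lncRNA had 156, 249.8 and 173 normalized counts in chromatin and 8.78, 10.3 and 5.07 in nucleoplasm (log2 fold change 4.44, SE 0.27, adjusted p = 5.71e-07). SSBP2 was itself higher in chromatin, and the ratio of the pair still rose by 2.44, SE 0.25, adjusted p = 2.49e-05.

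The first splice donor was read for all multi-exon members. The intron at a donor site nearly always begins with GT, and GC is the main minor form. Of the 1120 multi-exon members, 1027 had GT, 88 had GC (7.86%) and 5 had other bases at the first donor. GC stood at 2.91% of 1373 multi-exon lncRNA genes with a symbol and 1.37% of 12192 protein-coding genes. The donors are shown as the last 3 exon bases and first 6 intron bases, with the first 2 intron bases in capitals, for 3 chromatin members with GT and for the 4 most abundant members with GC, outside chromosome 8, that share no exon with another gene.
ENSG00000283982: gagGTgagc
ENSG00000287355: gtgGTaagt
ENSG00000249476: caaGTaagt
ENSG00000279168: acaGCaagc
ENSG00000249753: gtaGCtggg
ENSG00000272438: gagGCgggt
ENSG00000232611: tagGCattc

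Of the 88 members with GC, 73 have 2 exons, which is 14.4% of the 2-exon members against 2.45% of those with 3 or more. A same-strand overlap with a protein-coding gene was found for 48 of the 88, against 229 of the 1027 with GT. Of the 73, 53 (72.6%) were called in chromatin with a median log2 fold change of 2.77, against 48.4% of the 432 2-exon members with GT (median 1.93). With at least 10 normalized counts in all 6 libraries 7 of 17 were called, against 29 of 142. Among members with a same-strand overlap, the shares called were 79.2% of 48 with GC and 52.0% of 229 with GT. With at least 10 in all 6 libraries they were 3 of 10 and 12 of 100. The parts of position and exon number in the donor classes were not tested.

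The 4 GC members shown varied. ENSG00000279168 had 2676, 3005 and 2767 normalized counts in chromatin and 1213, 1203 and 1253 in nucleoplasm (log2 fold change 1.20, SE 0.055, adjusted p = 9.76e-08), and ENSG00000249753, within DPY19L2, had 1189, 1604 and 1257 and 323, 316 and 269.5 (log2 fold change 2.15, SE 0.12, adjusted p = 3.32e-07). ENSG00000272438, 7947 bases from SAMD11, had 319, 398 and 355 and 278, 294 and 286, a smaller difference (log2 fold change 0.31, SE 0.09, adjusted p = 0.00954). ENSG00000232611, 207 bases from RBMX (an RNA-binding protein gene), had 453, 618 and 478 and 83.4, 62 and 58.3 (log2 fold change 2.91, SE 0.16, adjusted p = 3.39e-07). The fractions were apart in each. With equal ERCC totals the log2 fold changes of ENSG00000279168 and ENSG00000272438 turned to -0.12 and -1.01, while those of ENSG00000249753 (0.82) and ENSG00000232611 stayed above 0.

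At the other end of the gene, AATAAA, the core polyadenylation signal, lay in the last 50 annotated bases of 38.6% of members, 41.0% of lncRNA genes with a symbol and 60.4% of protein-coding genes. The median annotated transcript was 992 bases for members, 1351 for lncRNA genes with a symbol and 2946.5 for protein-coding genes.

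The ratio of each member to its nearest tested protein-coding gene, which hardly depends on how libraries are scaled (through the pseudocount alone), was higher in chromatin for 1450 of 1885 members (76.9%) at an adjusted p-value under 0.05 in limma, and lower for 178. Over all 3434 lncRNA genes with such a neighbour, which include the 1885 members, it was higher for 73.6% and lower for 11.7%. It was more than 4-fold higher for 937 members, against 43.2% of those lncRNA genes. Among the 888 members with at least 10 normalized counts in all 6 libraries, it was higher for 606 and lower for 151. The share over all lncRNA genes under that filter was not computed. The neighbours had a median log2 fold change of -0.22. Across the 1885 pairs, the fold changes of member and neighbour had a Pearson r of 0.07 and a Spearman rho of 0.08, a description across genes measured in the same libraries. Of the 78 members whose neighbour was called in chromatin, 47 were called too, beside 45.5% of all members and 21.2% of all tested genes.

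By position, the ratio was higher in chromatin for 359 of the 399 members overlapping a gene on its strand and not classed as sharing a coding exon. Of the 93 that share a coding exon, it was higher for 43. It was higher for 269 of the 360 divergent members (74.7%) and for 1181 of the 1525 others (77.4%), while the shares called in chromatin were 23.6% and 50.7%. The neighbours of divergent members had a median log2 fold change of -0.45 and those of the others -0.17. By exon number, it was higher for 620 of 765, 412 of 507 and 418 of 613 members with 1, 2 and 3 or more exons.

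**Figure D4:**
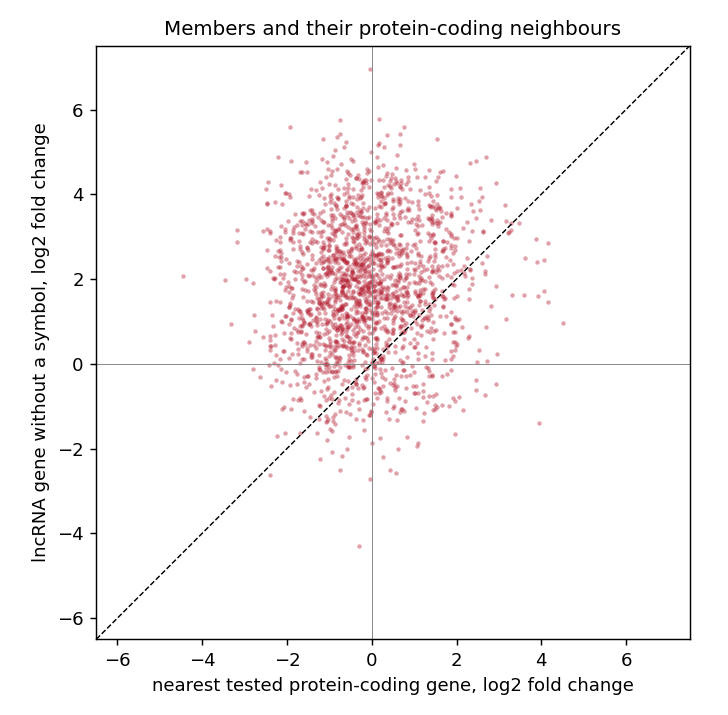
Log2 fold change (chromatin over nucleoplasm) of each member against that of its nearest tested protein-coding gene, 1 point per member; the dashed line marks equal values. Points lie mainly above the line, and the cloud shows little slope (Pearson r 0.07). Relative to the neighbour, 1450 of 1885 members were higher in chromatin, against 73.6% of all 3434 lncRNA genes with a neighbour, members included.

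The most abundant members were of mixed kinds. ENSG00000259001 overlaps RPPH1, the RNA of RNase P, and had 87952, 84396 and 103772 normalized counts in chromatin and 210102, 219616 and 245299 in nucleoplasm (log2 fold change -1.29, SE 0.10, adjusted p = 2.10e-06). ENSG00000270066 overlaps SCARNA2, a small Cajal body RNA, and had 48889, 40825 and 49039 against 3573, 4988 and 5236 (log2 fold change 3.34, SE 0.14, adjusted p = 6.39e-08). ENSG00000284707 runs through the exons of ASNS, the asparagine synthetase gene, and had 27106, 26924 and 25593 against 27381, 33627 and 28220.5 (log2 fold change -0.16, SE 0.08, adjusted p = 0.089). In the first 2 cases the small RNA, and in the last the messenger RNA, cannot be told apart from the lncRNA.

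Among abundant members with no exon of another gene, ENSG00000287238 (chr11:118721104-118729412), 18351 bases from DDX6 (an RNA helicase gene), had 36973, 42438 and 42447 normalized counts in chromatin and 9546, 9786 and 10050.3 in nucleoplasm (log2 fold change 2.05, SE 0.064, adjusted p = 1.66e-08). ENSG00000258776, 877 bases from OTX2 (a homeobox gene), had 27629, 29043 and 27628 against 13042, 13865 and 13902 (log2 fold change 1.05, SE 0.049, adjusted p = 1.05e-07). Exon overlap was judged on annotated exons. The short-read gene counted for ENSG00000258776 spans chr14:56795115-56893710, while the annotated gene begins at 56817570. The counted span thus reaches past the gap to OTX2, and OTX2 reads cannot be told apart from those of the lncRNA. Both members were higher in chromatin in all libraries, but with equal ERCC totals ENSG00000258776 stood at -0.28 and ENSG00000287238 at 0.73.

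Members with fold changes nearest to 0 showed overlapping fractions. ENSG00000269947 had 86.2, 87.7 and 95.5 normalized counts in chromatin and 103, 89.5 and 81.1 in nucleoplasm (log2 fold change -0.016, SE 0.12, adjusted p = 0.906). ENSG00000277879, antisense to the transporter gene SLC18A2, had 60.6, 62.4 and 71.4 against 62.3, 60.3 and 74.3 (log2 fold change -0.016, SE 0.13, adjusted p = 0.913). ENSG00000289699, which overlaps exons of DAB2 and C9, had 596, 584 and 551 against 582, 554 and 573 (log2 fold change 0.019, SE 0.058, adjusted p = 0.768). The direction of these 3 changed with the scaling.

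In long reads, available for chromatin only, 1854 of the 1885 members had a transcript in the table and 946 (50.2%) were above 0 TPM in both libraries, 555 of them at 1 TPM or more in both. The shares above 0 in both were 58.6% for members with 1 exon, 38.7% for 2 exons and 49.3% for 3 or more. By short-read abundance they were 26.1% in the lowest of the 4 groups, 42.0% and 58.4% in the next, and 74.3% in the highest. Of the 858 members called in chromatin, 48.3% were above 0 in both, against 51.8% of the 1015 members called in neither fraction. For 56 members, assembled transcripts matched by span on the opposite strand were above 0 in both libraries. Since it is not stated whether strands were assigned, reads of a gene on the other strand may count towards a member.

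Among the short-read genes kept here, the member with the highest long-read value was not the one with the highest short-read count. ENSG00000280441 (chr21:8380643-8454792) had 5484 and 3883 TPM, but 129, 108 and 109.8 normalized counts in chromatin and 124, 122 and 135 in nucleoplasm (log2 fold change -0.14, SE 0.11, adjusted p = 0.249). A second short-read gene over the same locus, left out as a second match, held 1215187, 339959 and 340353 in chromatin and 615570, 418183 and 433038 in nucleoplasm, with chromatin replicate 1 far above the other libraries. These values lie above those of ENSG00000259001, the most abundant member, in every library. The contrast between long and short reads therefore depends on which short-read gene was kept for this locus. ENSG00000287238, above, had 204 and 198 TPM. ENSG00000275496 (chr21:6228966-6267317) had 113 and 58.1 TPM with 596, 639 and 535 against 146, 145 and 137 normalized counts (log2 fold change 2.04, SE 0.084, adjusted p = 5.31e-08). ENSG00000288632, which overlaps exons of BOLA2-SMG1P6, had 94.1 and 79.7 TPM with 19067, 22728 and 18413 against 4394, 4301 and 4344 (log2 fold change 2.20, SE 0.077, adjusted p = 2.52e-08). The 8 chromatin members with the largest fold changes had at most 10.8 TPM, and ENSG00000268170 was at 0 in both long-read libraries.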

How the data were processed

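The members, lists and classes were chosen with earlier results of these data known. The authors mapped short reads to hg38 plus ERCC sequences (HISAT2 2.1.0), assembled and merged transcripts of both fractions with StringTie guided by GENCODE, and divided gene counts by DESeq2 size factors. The deposited values are this normalized signal per gene. All values were whole multiples of 1 read per library (100% at a tolerance of 0.001), so reads were recovered. Long reads were aligned by the authors with minimap2, and the deposited values are TPM per transcript, which keep no depth; whether strands were assigned first is not stated.

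Gene models came from GENCODE 44. Of 26584 rows matched by identifier, 97.0% had a Jaccard index above 0.9, so coordinates were read on hg38. For 4 members a second matching row was left out. Genes spanning over 200 bases with a normalized count of 10 or more in 3 or more libraries were tested with limma 3.58.1 (R 4.3.3) on log2(normalized count + 1), without covariates, with Benjamini-Hochberg adjustment over 26066 genes; ERCC standards were kept out. A call needed an adjusted p-value under 0.05 and a log2 fold change beyond 2. The ratio to the neighbour was fitted the same way over 3434 lncRNA genes. Both fits were tested on simulated data. The recovered reads were also tested with edgeR 4.0.16 and with DESeq2 1.42.0. Pseudocounts, filters, scalings, matches and class definitions were varied, a replicate term was added, and single libraries were dropped. The split by exon overlap, CpG content and donor base was added after seeing the data.

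Named members averaged 50 or more normalized counts and were the 8 called in chromatin and 6 in nucleoplasm with the largest changes, the 5 most abundant, the largest per exon and distance class, the 3 nearest to 0 and the 4 highest in long reads; the GC-donor members were chosen after their values were seen. Counting intervals and floors (3 reads) cover counting error only. The reference genome is not masked, so repeat content was not computed. The tables of promoters and genes from RefSeq matched no member, and promoters were read from the genome. The promoter sequences of 2 further named members are not reported here.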

Additional observations from a re-analysis of the deposited data

How the results depend on the processing

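The 858 members called in chromatin became 542 with a pseudocount of 5, 246 among members averaging 50 or more, 205 with at least 10 in all 6 libraries, 383 with equal ERCC totals, 1331 at a 2-fold minimum, 184 by identifier match only and 551 without same-strand overlaps. The 12 called in nucleoplasm became 19 without a filter, 107 with equal ERCC totals, 6 with equal totals, 64 at a 2-fold minimum, 0 of 405 by identifier only (0 also by edgeR and DESeq2, while 17 were lower in chromatin in limma at an unadjusted p under 0.05), 7 without same-strand overlaps and 5 without exon overlaps. The 383 and the 542 were all among the 858, and edgeR shared 852 of them and DESeq2 853. The median of 1.82 became 1.50 (pseudocount 5), 1.11 without a filter, 1.52 (mean of 50), 1.07 (all 6 libraries), 0.57 (equal ERCC totals), 2.26 (equal totals), 1.89 (edgeR), 1.98 (DESeq2), 1.65 (no same-strand overlap) and 1.99 (no exon overlap). The exon-number difference turned to 2.74 (equal ERCC totals), 0.40 (no same-strand overlap) and 3.21 (no exon overlap, an alternative added after seeing the data), and the distance difference to 7.64 (mean of 50), 8.56 (all 6 libraries), 6.63 (identifier only), 6.92 (no same-strand overlap) and 28.4 (distance between starts). Long-read members fell from 946 to 555 at 1 TPM. Settings that keep fewer members lower the counts by construction; elsewhere the cause was not tested.

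Leaving out single libraries gave 834 to 864 chromatin and 9 to 14 nucleoplasm calls, medians of 1.79 to 1.84, exon-number differences of -3.82 to -2.08, distance differences of -6.31 to -4.42, and 1410 to 1429 members above their neighbour. Whether same-numbered libraries came from 1 culture is not stated. Their deviations correlated at 0.087, 0.053 and 0.063, and each library correlated best with its own number, a hint from the data and not from the design. With the replicate block, 859 members were called in chromatin, 12 in nucleoplasm, and 1444 were above their neighbour.

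Signs turned for the named members given here and, with equal ERCC totals, for 2 of the GC-donor members in the text (ENSG00000279168 and ENSG00000272438). With equal totals ENSG00000284707 stood at 0.31, ENSG00000280441 at 0.32, ENSG00000269947 at 0.44 and ENSG00000277879 at 0.44. With equal ERCC totals ENSG00000258776 stood at -0.28 and ENSG00000289699 at -1.30. ENSG00000269947 was at 0.011 (TMM), 0.0080 (edgeR) and 0.073 (DESeq2), and -0.095 to 0.073 without single libraries; ENSG00000277879 was at 0.011, 0.0091, 0.074, and -0.086 to 0.076; ENSG00000289699 was at -0.0054 to 0.051.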
